A study of Rattus norvegicus with 9 samples.

Results

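Integrins are paired receptors, each made of an α and a β chain, that fasten cells to the extracellular matrix or to other cells. In the liver, β1 and αv pairs on hepatic stellate cells, endothelium and bile duct epithelium bind collagen, laminin, fibronectin and vitronectin, and αv pairs can release active transforming growth factor β (TGFβ) from its latent complex in the matrix. The β2 pairs are found on leukocytes and carry them through the vessel wall, with αL binding the intercellular adhesion molecules and αM binding complement and fibrinogen as well.

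The messenger RNA of 9 integrin subunit genes was followed here, chosen by name as the main receptors of matrix (Itgb1, Itgav, Itga1, Itga5, Itgb5 and Itgb6) and of leukocytes (Itgb2, Itgal and Itgam). They stand among 14377 genes, and are read by 13 of 31042 probe sets, on Affymetrix rat expression arrays of whole liver. There were 9 arrays, 1 per rat and 3 per group, from male Sprague-Dawley rats whose age is not given in the sources used here. Vehicle rats received no carbon tetrachloride (CCl4, a hepatotoxin that scars the liver), CCl4 rats received it in olive oil by intraperitoneal injection over 8 weeks, and CCl4+Rot rats received the same CCl4 together with rottlerin, an activator of the large-conductance calcium-activated potassium (BK) channel, at 2.5 mg/kg, injected 2 weeks after the CCl4 course began (the methods do not say how often). The comparison of CCl4 with vehicle addresses fibrosis, and that of CCl4+Rot with CCl4 the effect of the activator in the fibrotic liver. No group received rottlerin without CCl4, and the liver was taken whole, so that in each result fewer cells of a type and less RNA per cell cannot be told apart.

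The value of a gene is the log2 signal of its brightest probe set, and each probe set also has a call of present, marginal or absent on each array. A present call on 3 or more arrays was reached by 7 of the 9. Itgb6 was called present on 1 array and Itgam on 0. CCl4 replicate 3 stood apart from the other arrays, with 12714 probe sets called present against 15550 to 16849 elsewhere and a median log2 signal of 7.81 against 6.79 to 7.01. Where a member's value or a marker range turned on it, the value without it is given as well.

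None of the 9 genes passed the test in any comparison (limma, adjusted p below 0.05 over all probe sets and at least 1.5-fold). What the arrays showed was a set of unequal differences. The leukocyte chain Itgb2 was above vehicle on every CCl4 array, as were 12.5% of all genes. Itgal and Itgb1 were above vehicle on every CCl4+Rot array, as were 15.2% of all genes. Itga1, the α chain that joins Itgb1 in a collagen receptor, was below vehicle on every CCl4+Rot array, as were 9.47%. It was also below CCl4 on every such array, as were 5.60%. By median change, the messenger RNAs of the listed matrix ligands stood further from vehicle than those of the receptors did. Among these ligands, fibronectin and vitronectin (Fn1 and Vtn) differed from vehicle by -0.18 and -0.24 in CCl4. In CCl4+Rot they differed by 0.07 and -0.04.

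**Figure D1:**
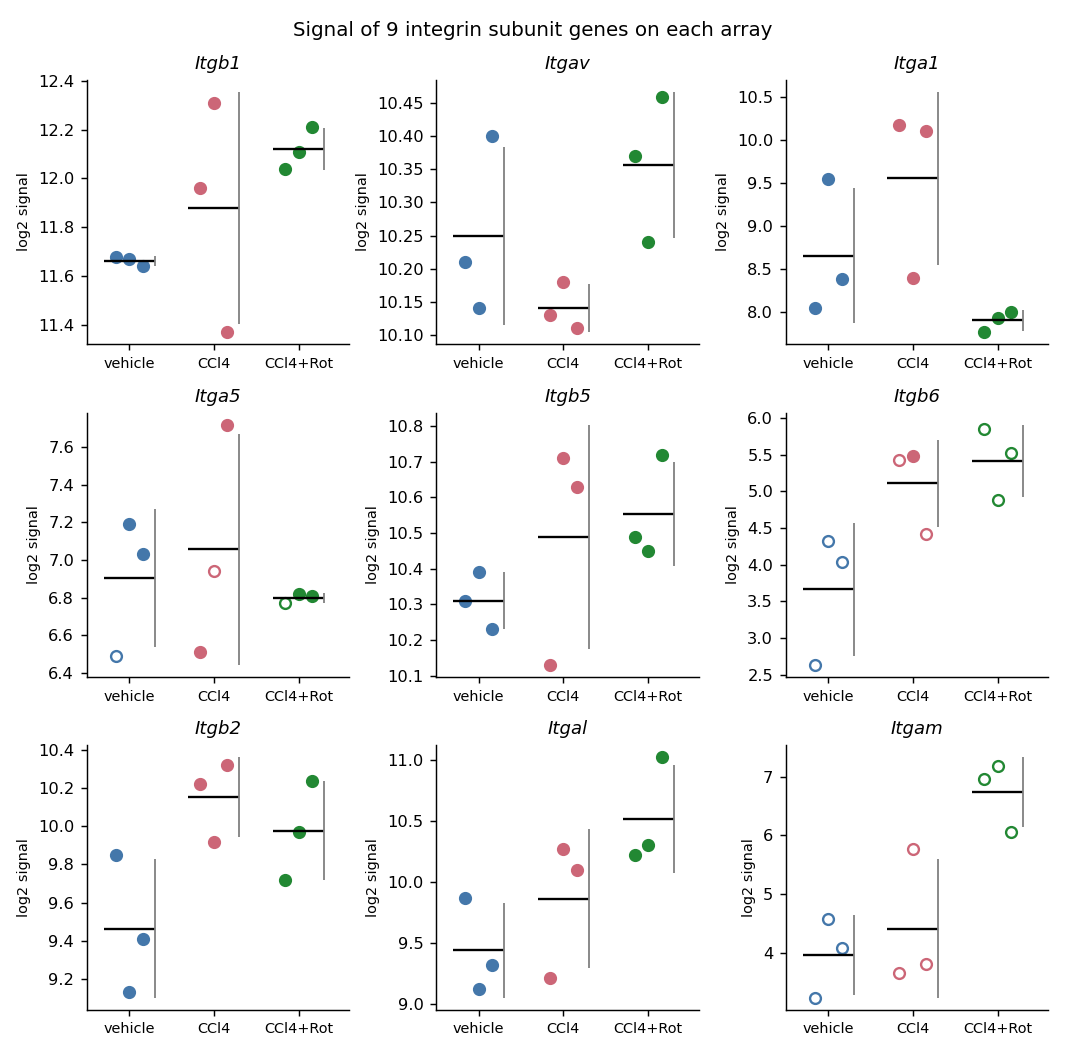
Log2 signal (vertical axis, a separate range in each panel) of each of the 9 genes on each array, by group. Filled points were called present, open points marginal or absent, black lines are group means and grey bars ± SD (3 arrays a group). Itga1 lay lowest in CCl4+Rot, from 7.76 to 8.0, and all 9 Itgam points are open.

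Itgb1 encodes the β chain shared by the collagen, laminin and fibronectin receptors, and Itga1 encodes the α chain that joins it in the collagen receptor α1β1. The 250 bases before each start are shown, as RefSeq gives them on build GRCr8. The pair was chosen because Itgb1 lay above vehicle and Itga1 below it on every CCl4+Rot array. Over all genes, 15.2% lay above vehicle and 9.47% below it in that way. Neither difference passed the test (limma adjusted p = 0.721 for Itgb1 and 0.835 for Itga1). Itgb1 lies at chr19:73602027-73602276 on the plus strand and Itga1 at chr2:48545284-48545533 on the minus strand, both written 5′ to 3′ with any match to a searched motif in capitals.
Itgb1: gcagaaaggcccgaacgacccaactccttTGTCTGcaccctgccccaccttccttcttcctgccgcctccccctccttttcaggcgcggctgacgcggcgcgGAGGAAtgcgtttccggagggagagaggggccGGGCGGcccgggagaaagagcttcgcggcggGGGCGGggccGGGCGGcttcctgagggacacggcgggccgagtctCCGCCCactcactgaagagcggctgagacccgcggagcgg
Itga1: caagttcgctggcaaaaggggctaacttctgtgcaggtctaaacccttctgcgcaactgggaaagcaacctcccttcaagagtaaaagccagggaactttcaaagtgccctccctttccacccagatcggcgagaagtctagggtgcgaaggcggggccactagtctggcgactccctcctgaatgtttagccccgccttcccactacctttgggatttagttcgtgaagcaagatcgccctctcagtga
The motifs, sought on both strands, were the GC box GGGCGG, the TATA box TATAAA, the AP-1 site TGANTCA, the PU.1-type Ets site GAGGAA, the SMAD-type repeat CAGACA and the CArG box, and of 33469 rat promoter windows of the same length 30.5%, 12.9%, 6.34%, 23.3%, 17.2% and 1.5% held them in that order. The Itgb1 window was 71.2% G and C (median of all windows 51.2%) and held 4 GC boxes, 1 Ets site and 1 SMAD-type repeat. The Itga1 window was 54.4% G and C and held 0 matches to these letters. Of the other members with an entry, Itgav held 2 GC boxes and 1 Ets site, Itga5 held 1 of each, Itgam held 2 of each, Itgb6 held 1 Ets site and 1 CArG box, and Itgb5 held 0 matches. The table matched 7 of the 9 members, with no entry for Itgb2 or Itgal. These are matches of letters, and the arrays did not measure binding.

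Itga1 had the largest difference between CCl4+Rot and CCl4 among the members present on at least 3 arrays. Its log2 signals were 8.04, 9.54 and 8.38 in vehicle, 10.17, 8.39 and 10.10 in CCl4, and 7.76, 7.93 and 8.0 in CCl4+Rot. The 3 CCl4+Rot rats lay together below all 6 others, whereas CCl4 replicate 2 lay among the vehicle rats. The difference of CCl4+Rot from CCl4 was -1.65 on the log2 scale, a 3.15-fold lower signal (SE 0.555, limma adjusted p = 0.724), and -1.38 without CCl4 replicate 3. The difference from vehicle was 0.90 in CCl4 (SE 0.555, limma adjusted p = 0.534) and -0.75 in CCl4+Rot (SE 0.555, limma adjusted p = 0.835). Leaving out vehicle replicate 4, the highest of its group, took the last difference to -0.31. The difference of CCl4 from vehicle went up to 1.48 when CCl4 replicate 2 was left out, and down to 0.59 when CCl4 replicate 1, to 0.63 when CCl4 replicate 3 and to 0.60 when the lowest vehicle rat, replicate 3, was. It was 0.54 with each array centred on its median.

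Itgb1 was called present on all 9 arrays. On the log2 scale, the signals read 11.68, 11.67 and 11.64 in vehicle, 11.96, 12.31 and 11.37 in CCl4, and 12.04, 12.11 and 12.21 in CCl4+Rot. All 3 CCl4+Rot rats were above all vehicle rats, and the CCl4 rats lay on both sides of vehicle, with replicate 3 lowest. The difference of CCl4+Rot from vehicle was 0.45 on the log2 scale (SE 0.243, limma adjusted p = 0.721). For CCl4 against vehicle it was 0.22 (SE 0.243, limma adjusted p = 0.730), which was 0.47 without CCl4 replicate 3, 0.00 without CCl4 replicate 2, and -0.14 when each array was centred on its median. For CCl4+Rot against CCl4 it was 0.24 (SE 0.243, limma adjusted p = 0.825) and -0.02 without CCl4 replicate 3. The dimmer of the 2 Itgb1 probe sets, also present on every array, differed from vehicle by 0.57 in CCl4 (limma adjusted p = 0.469) and by 0.76 in CCl4+Rot (limma adjusted p = 0.549), again with every CCl4+Rot array above vehicle.

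Itgav encodes the αv chain, which pairs with β1, β5 and β6 to bind vitronectin, fibronectin and latent TGFβ. On its brightest probe set the log2 signals were 10.21, 10.14 and 10.40 in vehicle, 10.13, 10.18 and 10.11 in CCl4, and 10.37, 10.24 and 10.46 in CCl4+Rot. The CCl4+Rot rats were above the CCl4 rats on every array, by 0.22 on the log2 scale (SE 0.152, limma adjusted p = 0.780), and the vehicle rats overlapped both groups. The difference of CCl4 from vehicle was -0.11 there (limma adjusted p = 0.786). The other Itgav probe sets had the opposite sign, 0.56 (limma adjusted p = 0.406, all 3 CCl4 rats above vehicle) and 0.58, and the mean of the 3 probe sets gave 0.34. In CCl4+Rot against vehicle, the 3 probe sets gave 0.11, 0.73 (limma adjusted p = 0.446, no overlap) and 0.52, and the first of these was 0.00 when each array was centred on its median. The direction for Itgav in CCl4 thus differed with the probe set read.

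**Figure D2:**
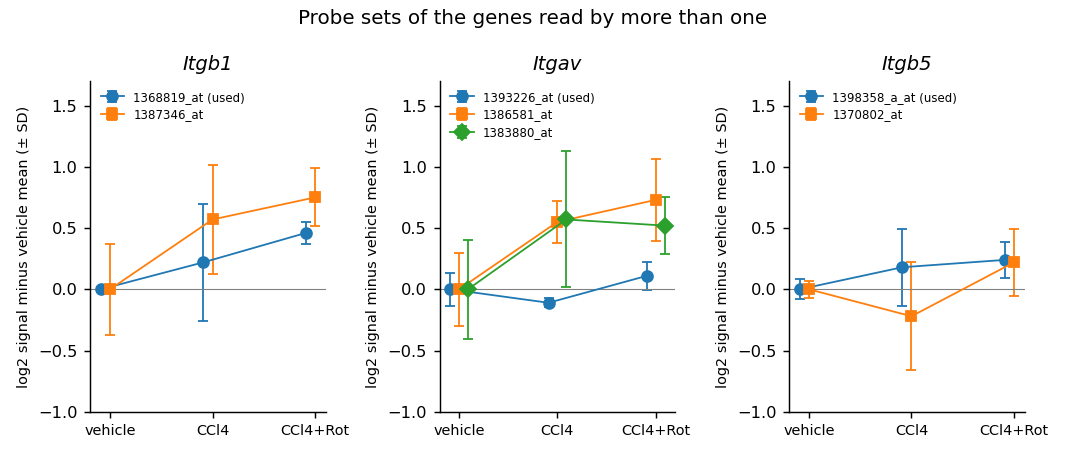
Group mean log2 signal of each probe set minus its own vehicle mean (vertical axis, bars ± SD, 3 arrays a group) for the 3 genes read by more than 1 probe set. The brightest Itgav probe set lay 0.11 below vehicle in CCl4, where the other Itgav probe sets lay 0.56 and 0.58 above it.

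Itgb5 encodes the β5 chain of a vitronectin receptor. The arrays gave log2 signals of 10.31, 10.39 and 10.23 in vehicle, 10.13, 10.71 and 10.63 in CCl4, and 10.49, 10.45 and 10.72 in CCl4+Rot. Every CCl4+Rot rat was above every vehicle rat, though by only 0.25 on the log2 scale (limma adjusted p = 0.859). The difference of CCl4 from vehicle was 0.18 (limma adjusted p = 0.723) and became -0.18 with each array centred on its median, and the dimmer probe set gave -0.23. The difference of CCl4+Rot from CCl4 was 0.07 (limma adjusted p = 0.943), and 0.00 after quantile normalization.

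Itga5 encodes the α chain of the fibronectin receptor α5β1 and was called present on 6 of 9 arrays. Its log2 signals were 6.49, 7.19 and 7.03 in vehicle, 6.51, 6.94 and 7.72 in CCl4, and 6.77, 6.82 and 6.81 in CCl4+Rot. The groups overlapped in every comparison. The differences were 0.15 for CCl4 against vehicle (limma adjusted p = 0.864), -0.25 for CCl4+Rot against CCl4 (limma adjusted p = 0.862) and -0.10 for CCl4+Rot against vehicle (limma adjusted p = 0.980). Quantile normalization turned the first to -0.21 and the second to 0.01, centring each array on its median turned the first to -0.21, and leaving out CCl4 replicate 3 turned these to -0.18 and 0.08.

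Itgb6 encodes the β6 chain, an epithelial partner of αv that binds latent TGFβ. Log2 signals for Itgb6 were 2.63, 4.32 and 4.04 in vehicle, 5.43, 5.48 and 4.42 in CCl4, and 5.85, 4.88 and 5.53 in CCl4+Rot. The 1 present call was on CCl4 replicate 2, with a marginal call on CCl4+Rot replicate 4. No vehicle array detected it, so the difference has only a bound, 2.23-fold for CCl4 over vehicle (limma adjusted p = 0.341). The bound averages all CCl4 readings, including those called absent, and so is not a firm lower limit. That bound ran from 1.90 to 2.84 with 1 array left out, and no bound could be given in the remaining case, when no CCl4 array detected the gene. No fold is given between CCl4+Rot and either group.

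Itgb2 encodes β2, the chain common to all the leukocyte receptors considered here. In log2 units, Itgb2 read 9.85, 9.13 and 9.41 in vehicle, 10.22, 9.92 and 10.32 in CCl4, and 9.72, 9.97 and 10.24 in CCl4+Rot, all called present. Every CCl4 rat was above every vehicle rat, and the CCl4+Rot rats overlapped both groups. The log2 signal was 0.69 higher in CCl4 than in vehicle, or 1.61-fold (SE 0.245, limma adjusted p = 0.338), with a range of 0.52 to 0.88 when each array was left out in turn, and 0.33, less than 1.5-fold, with each array centred on its median. It was 0.51 higher in CCl4+Rot than in vehicle (SE 0.245, limma adjusted p = 0.665, from 0.35 to 0.70 with an array left out). Between CCl4+Rot and CCl4 the difference was -0.18 (SE 0.245, limma adjusted p = 0.872), and 0.07 with each array centred on its median.

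Itgal encodes αL, the chain that joins β2 in the lymphocyte receptor for the intercellular adhesion molecules. Itgal gave log2 signals of 9.87, 9.12 and 9.32 in vehicle, 9.21, 10.27 and 10.10 in CCl4, and 10.22, 10.30 and 11.02 in CCl4+Rot, all called present. Here the CCl4+Rot rats, rather than the CCl4 rats, were all above vehicle, and CCl4 replicate 1 lay within the vehicle range. The log2 signal was 1.08 higher in CCl4+Rot than in vehicle, or 2.11-fold (SE 0.369, limma adjusted p = 0.469), from 0.82 to 1.29 when each array was left out in turn. It was 0.42 higher in CCl4 than in vehicle (SE 0.369, limma adjusted p = 0.659), but 0.22 without CCl4 replicate 2, 0.75 without CCl4 replicate 1, and 0.06 with each array centred on its median. It was 0.66 higher in CCl4+Rot than in CCl4 (SE 0.369, limma adjusted p = 0.765), from 0.33 without CCl4 replicate 1 to 0.86 without CCl4 replicate 2.

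Itgam encodes αM, the β2 partner of macrophages and neutrophils, and was called absent on all 9 arrays. For Itgam, the log2 signals were 3.23, 4.57 and 4.08 in vehicle, 3.66, 5.77 and 3.80 in CCl4, and 6.96, 7.18 and 6.06 in CCl4+Rot. The CCl4+Rot readings were above all the others, but without a detected array they give no fold.

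**Figure D3:**
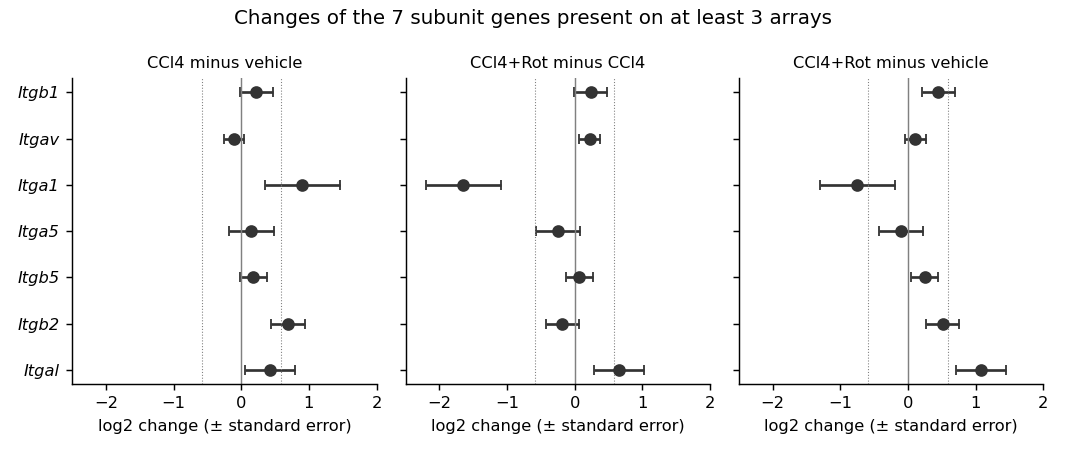
Log2 change (horizontal axis, points, with bars of ± 1 standard error from limma) of the 7 genes present on at least 3 arrays, in the 3 comparisons. Dotted lines mark 1.5-fold. Itga1 had the most negative change in CCl4+Rot minus CCl4, -1.65, and Itgal the most positive in CCl4+Rot minus vehicle, 1.08.

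Counted over the members, CCl4 against vehicle had 0 of 9 past the test, where 0% of all genes passed. With the spread trended and robust, 0 of 9 passed and 1.62% of all genes did. At an unadjusted p below 0.05, 2 of 9 were higher (Itgb6 and Itgb2) against 9.49% of all genes, and 2 of 9 were above vehicle on every array against 12.5% of all genes. Without CCl4 replicate 3, the 2 higher members at that p were Itgb1 and Itgb6, against 7.80% of all genes. A t-test, unadjusted and with the 1.5-fold threshold of the array methods, picked 1 member (Itgb2). The methods list a t-test for data in general and name no test for the arrays. The median change of the 9 members was 0.42 on the log2 scale, and that of all genes 0.13. These medians take in genes that were not detected, and over genes present on at least 3 arrays they were 0.22 for 7 members and 0.04 for 9811 genes.

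For CCl4+Rot against CCl4, 0 of 9 passed the test and 0% of all genes did, and with the trended and robust spread 0 of 9 passed and 0.00696% of all genes did. At an unadjusted p below 0.05, 1 member was higher (Itgam, called absent throughout) against 2.10% of all genes and 1 was lower (Itga1) against 3.40%, and the latter did not reach that p without CCl4 replicate 3. On every array, 2 members were above CCl4 (Itgav and Itgam) against 5.57% of all genes, and 1 was below it (Itga1) against 5.60%. The t-test with that threshold picked 2 (Itga1 and Itgam). The median change was 0.22 for the members, or 0.08 without CCl4 replicate 3, and -0.05 for all genes. Over genes present on at least 3 arrays it was 0.07 for the members and 0.01 for all.

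For CCl4+Rot against vehicle, which shares its arrays with both comparisons above, 0 of 9 passed the test and 0.0209% of all genes did, and with the trended and robust spread 0 of 9 passed and 1.17% of all genes did. At an unadjusted p below 0.05, 3 were higher (Itgb6, Itgal and Itgam) and 0 lower, against 7.46% and 2.33% of all genes. Itgb6 and Itgam had no present call in either of these groups. On every array, 5 were above vehicle (Itgb1, Itgb5, Itgb6, Itgal and Itgam) against 15.2% of all genes, and 1 was below it (Itga1) against 9.47%. The t-test with that threshold picked 3 (Itgb6, Itgal and Itgam). The median change was 0.45 for the members and 0.03 for all genes, and over genes present on at least 3 arrays 0.25 for the members and 0.03 for all. With 3 rats a group an exact permutation test of a single gene cannot give a two-sided p below 0.10.

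The summed leukocyte markers, other than those of B cells, lay above vehicle on every CCl4+Rot array, as Itgal did. They overlapped vehicle in CCl4, where Itgb2 did not. The summed signal of 6 pan-leukocyte markers ran from 2380 to 3990 in vehicle, 3670 to 5860 in CCl4 and 5120 to 6830 in CCl4+Rot. The 8 macrophage markers measured ran from 13000 to 18300, 16300 to 20200 and 20800 to 24400, and the 4 neutrophil markers from 235 to 1170, 561 to 1010 and 1300 to 2150, in the same order. The 9 T and NK cell markers ran from 510 to 745, 460 to 1650 and 793 to 1150. The highest of these was CCl4 replicate 3, and the other CCl4 arrays were at 460 and 778. The 2 B cell markers measured ran from 116 to 197, 104 to 383 and 135 to 146, so that all groups overlapped. CCl4 replicate 3 was again the highest, and the other CCl4 arrays were at 142 and 104. Taken singly, 5 of 6 pan-leukocyte and 5 of 8 macrophage markers lay above vehicle on every CCl4+Rot array. So did 3 of 4 neutrophil and 2 of 9 T and NK cell markers, against 15.2% of all genes. Of the T and NK cell markers, 3 had no present call on any array. The brightest macrophage marker, Clec4f (mean 12.69 in vehicle and 12.8 in CCl4+Rot), overlapped vehicle, as did Cd14 and Cd163. At an unadjusted p below 0.05, 2 of 6 pan-leukocyte markers were higher in CCl4 than in vehicle, and in CCl4+Rot 4 of 6 were higher and 1 lower (Cd52, called absent on all arrays) than in vehicle. Over all genes, the shares were 9.49% in CCl4, and 7.46% higher and 2.33% lower in CCl4+Rot. One of them, Cd53, a membrane protein of leukocytes, had log2 signals of 10.23, 9.42 and 9.75 in vehicle, 10.44, 11.15 and 10.76 in CCl4, and 11.05, 10.82 and 11.25 in CCl4+Rot, so that both treated groups lay above every vehicle rat. The part of leukocyte number in the signals of Itgb2 and Itgal was not tested.

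**Figure D4:**
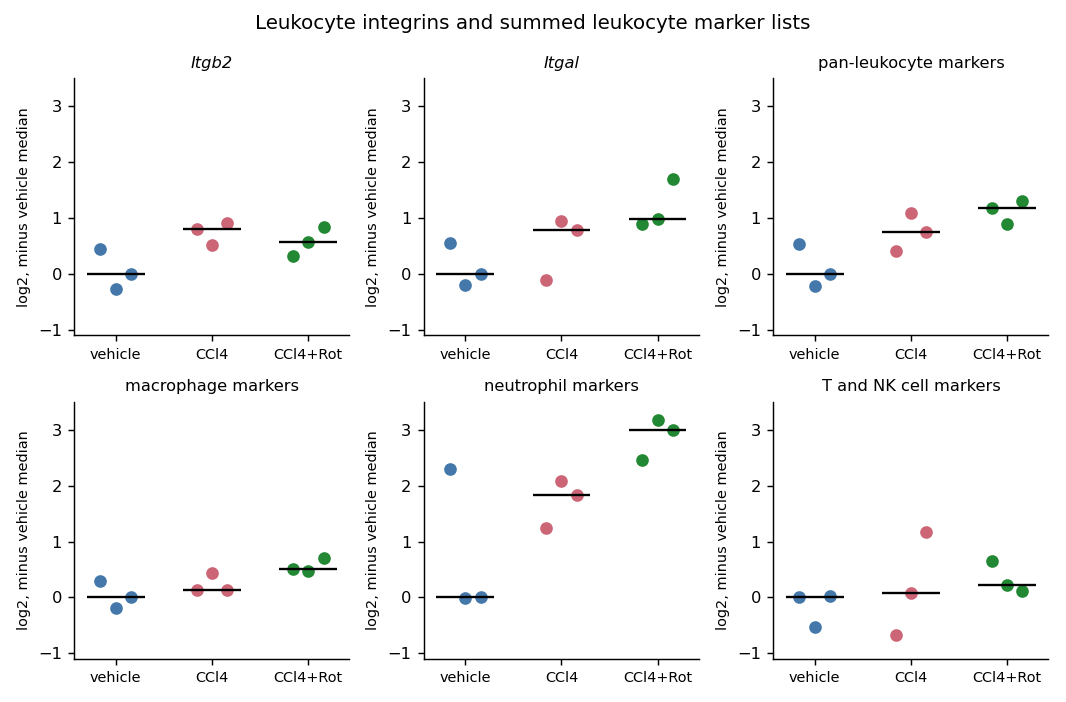
Log2 signal of Itgb2 and Itgal, and log2 of the summed signal of 4 leukocyte marker lists, each minus its vehicle median (vertical axis, the same range in all panels). Points are arrays and black lines group medians. The CCl4+Rot arrays lay above every vehicle array for Itgal and for each of the 4 marker lists, and overlapped vehicle for Itgb2.

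Markers of the cells that carry the matrix receptors moved unequally. The summed stellate cell and myofibroblast markers ran from 3420 to 4000 in vehicle, 4500 to 7120 in CCl4 and 6500 to 7350 in CCl4+Rot. These sums were above vehicle on every array of both groups, as Itgb1 was in CCl4+Rot and Itga1 was not. Singly, Des, Pdgfrb and Lum were above vehicle on every array of both groups. Myl9, Lrat and Dcn were so in CCl4+Rot only, and Acta2 and Tagln in neither. Cnn1, called present on 2 arrays, lay below vehicle on every array of both. The endothelial markers ran from 9970 to 11100, 7600 to 10500 and 10200 to 11300, and the cholangiocyte markers from 850 to 1010, 1020 to 1680 and 1020 to 1080. The hepatocyte markers, which define the tissue, ran from 152000 to 169000, 112000 to 173000 and 158000 to 173000. CCl4 replicate 3 alone gave the low endothelial and hepatocyte sums in CCl4, and the other CCl4 arrays were at 10000 and 10500 for endothelial and at 163000 and 173000 for hepatocyte markers. The part of these cells in the values of Itga1, Itgb1 and Itgb6 was not tested.

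Among the other integrin genes, 9 of 12 matrix, platelet and epithelial chains and 4 of 5 leukocyte chains were measured. Itga8, the α8 chain of a receptor on smooth muscle and stellate cells, had log2 signals of 7.62, 6.93 and 7.32 in vehicle, 8.26, 10.04 and 8.45 in CCl4, and 9.17, 9.46 and 9.80 in CCl4+Rot. Both treated groups lay above every vehicle rat, by 1.62 (SE 0.473, limma adjusted p = 0.275) and 2.18 (SE 0.473, limma adjusted p = 0.232), and the latter passed with the trended and robust spread (limma adjusted p = 0.0215). Itga6, an α chain of laminin receptors, was 1.15 higher in CCl4 than in vehicle (limma adjusted p = 0.3) without overlap. It was named after its values were seen. Itgax, the αX partner of β2 in dendritic cells and macrophages, was 1.45 higher in CCl4 (limma adjusted p = 0.345) and 1.67 higher in CCl4+Rot (limma adjusted p = 0.419) than in vehicle, and was above it on every array of both. In CCl4 against vehicle, 2 of the 9 and 1 of the 4 were higher at an unadjusted p below 0.05, against 9.49% of all genes, and 0 passed limma's adjusted test by either spread.

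Of the integrin, ligand and adaptor lists, the matrix ligands stood furthest from vehicle by median. Of 15 measured, 10 were higher in CCl4 and 12 in CCl4+Rot at an unadjusted p below 0.05 (9.49% and 7.46% of all genes). In either, 0 passed limma's adjusted test, and 4 and 6 passed it with the trended and robust spread (1.62% and 1.17% of all genes). Their median change was 1.07 in CCl4 and 1.58 in CCl4+Rot against vehicle on the log2 scale, beside 0.13 and 0.03 for all genes. Col1a1, a chain of type I collagen bound by α1β1, was 2.29 higher in CCl4 (SE 0.361, limma adjusted p = 0.171) and 2.74 higher in CCl4+Rot (SE 0.361, limma adjusted p = 0.110), and Col3a1, of type III collagen, was 1.17 and 1.68 higher (limma adjusted p = 0.243 and 0.191). Periostin (Postn), a ligand of αv pairs not detected in vehicle, had bounds of 11.3-fold higher in CCl4 and 12.3-fold higher in CCl4+Rot. With an array left out they ran from 8.57 to 14.0 and from 10.6 to 15.2. Osteopontin (Spp1), another αv ligand not detected in vehicle, had bounds of 32.0-fold higher in CCl4 and 7.50-fold higher in CCl4+Rot. The Spp1 bounds ran from 23.3 to 50.1, the latter without CCl4 replicate 2. In CCl4+Rot they ran from 4.69, without CCl4+Rot replicate 4, to 10.6. For both genes the bound equals the difference of the group means, so it is not a firm lower limit. Its log2 signals were 12.11, 9.90 and 11.58 in CCl4 and 10.46, 8.11 and 8.74 in CCl4+Rot, a mean difference of -2.09 with overlap (SE 0.723, limma adjusted p = 0.724). Fibronectin (Fn1) and vitronectin (Vtn), which hepatocytes make in quantity, differed from vehicle by -0.18 and -0.24 in CCl4 and by 0.07 and -0.04 in CCl4+Rot. Between CCl4+Rot and CCl4, 1 matrix ligand was higher (Lama2, a laminin chain, by 0.47) and 1 lower (Spp1) at an unadjusted p below 0.05, against 2.10% and 3.40% of all genes.

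Of the 5 genes of the latent TGFβ complex, on which αv receptors act, Tgfb1, Tgfb2 and Lrrc32 had no present call on any of the 9 arrays. Tgfb3 was 1.44 higher in CCl4 (limma adjusted p = 0.260) and 1.64 higher in CCl4+Rot (limma adjusted p = 0.297) than in vehicle. Ltbp1, which anchors the latent complex in the matrix, was 1.12 higher (limma adjusted p = 0.261) and 1.80 higher (limma adjusted p = 0.191). Both genes were above vehicle on every array of both groups. With the trended and robust spread, both passed in CCl4+Rot against vehicle, 2 of the 5 beside 1.17% of all genes. Without CCl4 replicate 3, 1 did.

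The listed ligands of leukocyte integrins, not only of the β2 pairs, lay nearer to vehicle by median than the matrix ligands did. Of 12 measured, 0 were higher in CCl4 or in CCl4+Rot than in vehicle at an unadjusted p below 0.05 (limma). The shares over all genes were 9.49% and 7.46%. In CCl4, 0 were lower, against 577 of 14377 genes. In CCl4+Rot, 1 was lower (Icam5, called absent on all arrays), against 2.33% of all genes. By either spread, 0 passed the adjusted test. Their median change was -0.18 in CCl4, or -0.01 without CCl4 replicate 3, and 0.02 in CCl4+Rot. In CCl4, 9 of 12 were below 0, as were 5579 of all 14377 genes. Icam1, the endothelial counter-receptor of αLβ2, had log2 signals of 11.04, 10.18 and 10.39 in vehicle, 10.03, 10.45 and 10.08 in CCl4, and 10.58, 10.72 and 10.91 in CCl4+Rot. It was 0.55 higher in CCl4+Rot than in CCl4, above it on every array (SE 0.260, limma adjusted p = 0.752), and -0.36 from vehicle in CCl4 (limma adjusted p = 0.594). Of 25 integrin adaptor and focal adhesion genes, 0 in CCl4 and 4 in CCl4+Rot were higher than vehicle at an unadjusted p below 0.05. Over all genes 9.49% and 7.46% were, and the median changes of the list were 0.17 and 0.32. Filamin A (Flna), an actin cross-linker that binds β tails, was 0.59 higher in CCl4+Rot than in vehicle (SE 0.176, limma adjusted p = 0.393) and above it on every array.

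**Figure D5:**
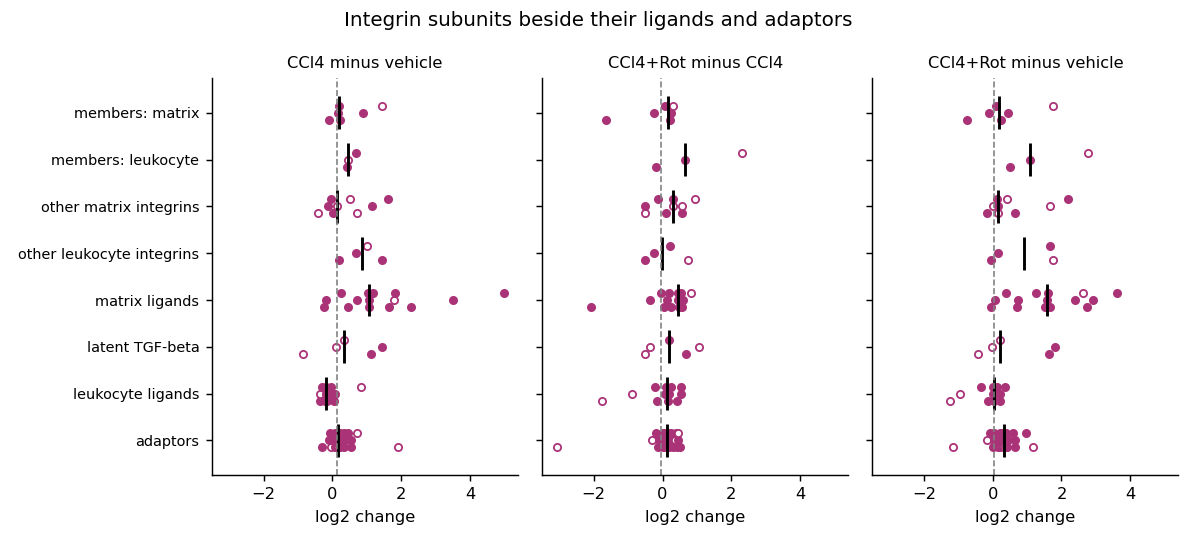
Log2 change of each measured gene (horizontal axis) in 8 lists, for the 3 comparisons. Filled points were present on at least 3 arrays, open points on fewer, black bars are list medians and the dashed line is the median of all genes. The matrix ligands had medians of 1.07 and 1.58 against vehicle, and the 6 matrix receptor members had medians of 0.20 and 0.18.

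By the root mean square difference of their array profiles, each centred on its own mean, the genes most like Itgb1 over the 9 arrays were Hfe (0.0587 on the log2 scale), Nedd4 (0.0671) and Fli1 (0.0837), where the median of 7058 genes was 0.36. Those most like Itgb2 were Uggt1 (0.112), LOC100360017 (0.131) and Wsb2 (0.136), where the median was 0.437.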

How the data were processed

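Liver RNA of 9 rats was hybridised to 1-colour Affymetrix arrays, and the authors deposited log2 signals with a detection call per probe set; MAS5 and affy are named in the submitters' processing notes. The antilog signals had a trimmed mean of 500 on every array. Groups were taken from the labels. Control probe sets (57) were left out, and a gene's value was that of the probe set with the highest mean among those naming it alone. Group means were fitted over all 9 arrays with limma 3.58.1 in R 4.3.3 (lmFit, eBayes), with Benjamini-Hochberg adjustment over 31042 probe sets and calls where the adjusted p was below 0.05 and the change 1.5-fold or more. The fit was tested on simulated data. P-values measure the spread between these rats, and the number of arrays limits the precision. A probe set detected in no array of a group has only a bound there, taken against each array's lowest present signal or the probe set's own, whichever was higher. The mean of the other group took in all its arrays, also any called absent. Named genes were all members and the 3 most like Itgb1 and Itgb2. Others came from the genes with the smallest p in each list and comparison among those present on at least 3 arrays. Not all of the latter are shown. Itga6, Col1a1, Col3a1, Spp1, Icam1, Icam5, Cd52, Fn1, Vtn, Tgfb1, Tgfb2, Lrrc32 and the single stellate cell and myofibroblast markers were named after their values were seen in some of the comparisons given. The same holds for Clec4f, Cd14 and Cd163. Members and lists were chosen with earlier results of these data known. Alternatives were quantile normalization, median centring, filters on low values, a 2-group fit, a trended and robust spread, a t-test, the mean of probe sets, a replicate block and each array left out. The trended and robust spread without CCl4 replicate 3 was added after seeing the data.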

Additional observations from a re-analysis of the deposited data

How the results depend on the processing

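The arrays carry no counts, so detection limits the dim genes Itgb6 and Itgam, and 3 rats a group limit all. Members called stayed at 0 under every adjusted alternative, array left out or replicate block. The t-test before adjustment gave 1 for CCl4 minus vehicle, 2 for CCl4+Rot minus CCl4, and 3 for CCl4+Rot minus vehicle, with 0 in each after it. Centring arrays on their median moved the median of all genes by -0.36, 0.25 and -0.11 in those comparisons, and quantile normalization moved the first by -0.12. Array pairs that shared a replicate number in the labels gave correlations of deviations of -0.0896, -0.00466 and -0.0125. So few pairs cannot settle whether arrays with the same number belong together, and the labels do not say so. With the replicate block (correlation -0.0327) 0 members were called.

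Of 1348 alternative values, 1299 kept direction and side of the threshold, 30 changed sign and 19 passed it newly. Many of these values could not change sign, so the count is no measure of stability. The filters, the 2-group fit, the trended and robust spread and the t-test leave the log2 change itself as it was. So does leaving out an array of a group that is not compared. CCl4 minus vehicle turned for Itgb1 (-0.14) and Itgb5 (-0.18) with median centring, for Itga5 (-0.21 with quantile normalization, -0.21 with median centring, -0.18 robust without CCl4 replicate 3), and with the mean of probe sets for Itgav (0.34), Itgb5 (-0.02) and Cdh1 (2.03). CCl4+Rot minus CCl4 turned for Itgb1 (-0.02) and Itga5 (0.08) robust without CCl4 replicate 3, for Itga5 (0.01) and Itgb5 (0.00) with quantile normalization, for Itgb2 (0.07) with median centring and for Hnf4a (-0.05) with the mean of probe sets. CCl4+Rot minus vehicle was 0.00 for Itgav with median centring. Ms4a1 turned to -0.31 in CCl4 minus vehicle and 0.28 in CCl4+Rot minus CCl4, robust without CCl4 replicate 3. The causes were not tested, apart from the scaling shifts above. Left out in turn, single arrays gave 0.00 to 0.47 and -0.02 to 0.45 for Itgb1 in the first and second comparison, -0.18 to 0.43, -0.53 to 0.08 and -0.31 to 0.04 for Itga5 in all of them, and -0.11 to 0.17 for Itgb5 in the second. For the B cell marker Ms4a1 the ranges were -0.31 to 0.86, -0.88 to 0.28 and -0.19 to 0.11.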
